A study of Mus musculus with 15 samples.

Results

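The genes described here were 7 Kruppel-like factors (Klf2, Klf3, Klf4, Klf6, Klf7, Klf10 and Klf13) and 2 receptors for sphingosine 1-phosphate (S1pr1 and S1pr4), taken by symbol from a table of 17594 genes. All 9 were found in it, and all 9 passed the filter on low values. RNA was sequenced from 15 sorted splenic samples of C57BL/6 mice in 4 groups: regulatory T cells (Treg), the CD4 lineage defined by Foxp3, and conventional CD4 T cells (Tconv), each from wild-type control animals (WT) and from animals with a conditional knockout of Hpgd driven by Foxp3-Cre-YFP (KO). Of Tconv WT there were 3 samples, of each other group 4. Hpgd encodes the enzyme that inactivates prostaglandin E2, and the Cre driver is designed to act in cells that express Foxp3, so Tconv of the KO animals carry the conditional allele but should not recombine it. The labels give neither the age nor the sex of the mice, do not say whether the control animals carried the driver or the conditional allele, and do not tie Treg and Tconv samples to shared animals, so the p-values below measure the spread between samples, which may in part be technical.

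Kruppel-like factors are zinc finger proteins that bind CACCC and GC-rich boxes in promoters. KLF2 holds resting T cells in a quiescent, recirculating state: the transcription factor FOXO1 raises its transcription, signalling through the antigen receptor and AKT lowers it, and among the genes it activates is S1pr1. S1PR1 is the receptor with which T cells sense the sphingosine 1-phosphate of blood and lymph, and cells need it to leave lymphoid organs. S1PR4 is a related receptor found mainly on blood cells.

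Several measured features moved with genotype in these libraries. Treg KO libraries held 2.64 to 4.71 M reads, against 6.43 to 10.0 M for Treg WT, 6.60 to 11.1 M for Tconv WT and 2.95 to 10.3 M for Tconv KO. Foxp3 averaged 4502 (WT) and 4046 (KO) normalized reads among Treg and 17.1 and 40.8 among Tconv. Together the Treg markers Foxp3, Il2ra, Ctla4 and Ikzf2 summed to 16547 to 18406 (Treg WT) and 18831 to 23668 (Treg KO). In Tconv they summed to 1065 to 1258 in WT and 640 to 4062 in KO, where Ikzf2 alone ranged from 366 to 3195. Hpgd had 1 read in all Treg WT libraries together and 0 in the other 3 groups, so its level does not check the genotype labels. Xist averaged 15567 (Treg) and 10118 (Tconv) in the KO groups and under 2 in both WT groups, whereas Y-linked Ddx3y was at 0 in both KO groups and averaged 1361 and 1419 in the WT groups. All KO samples were thus female and all WT samples male by these genes, which means that genotype and sex cannot be told apart, and the label numbers of the genotypes (483 to 490 for WT, 574 to 581 for KO) do not overlap either. The summed level of 12 B cell markers, mostly Cd74 and Cd79b, was 532 to 785 (Treg WT), 875 to 1911 (Treg KO), 47.9 to 55.0 (Tconv WT) and 70.0 to 173 (Tconv KO). In Treg KO against Treg WT, H2-Eb1 (6.20-fold, adjusted p = 0.00575, limma) and H2-Aa (3.03-fold, adjusted p = 0.0332) of these markers rose, while Cd74 (1.77-fold, adjusted p = 0.0687), Cd79b (1.70-fold, adjusted p = 0.0920) and H2-Ab1 (2.09-fold, adjusted p = 0.244) did not pass. The B cell factors Ebf1 and Pax5 averaged at most 0.669 and 1.07 normalized reads in any group, and the part of other cells in the results below was not tested.

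Promoters of the 2 genes that fell in Treg KO and of Klf13, which like Klf2 was lower in Treg than in Tconv, are printed here because Kruppel-like factors bind such boxes. Each run is the 250 bases before the RefSeq start of the gene (GRCm38.p6), 5′ to 3′ on the gene's strand, and capitals mark CACCC (or GGGTG on the other strand) and the GC box GGGCGG (or CCGCCC).
Klf2: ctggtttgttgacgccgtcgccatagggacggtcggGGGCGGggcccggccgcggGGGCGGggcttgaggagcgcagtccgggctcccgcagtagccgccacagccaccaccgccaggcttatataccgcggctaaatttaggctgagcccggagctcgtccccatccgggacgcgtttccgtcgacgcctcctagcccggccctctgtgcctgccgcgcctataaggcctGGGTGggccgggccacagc
Klf13: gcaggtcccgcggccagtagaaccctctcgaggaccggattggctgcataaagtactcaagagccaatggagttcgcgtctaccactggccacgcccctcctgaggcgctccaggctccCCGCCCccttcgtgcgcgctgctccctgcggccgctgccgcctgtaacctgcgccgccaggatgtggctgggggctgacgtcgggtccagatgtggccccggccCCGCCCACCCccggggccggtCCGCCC
S1pr4: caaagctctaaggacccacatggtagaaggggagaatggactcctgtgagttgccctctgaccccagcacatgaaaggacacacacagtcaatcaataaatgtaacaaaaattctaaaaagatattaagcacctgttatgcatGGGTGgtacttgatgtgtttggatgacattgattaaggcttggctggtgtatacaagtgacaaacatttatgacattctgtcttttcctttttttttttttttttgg
The Klf2 run is chr8:72318812-72319061 on the plus strand, and its last bases, which include the marked GGGTG, lie inside the GENCODE gene model. The Klf13 run is chr7:63938916-63939165 and that of S1pr4 chr10:81500138-81500387, both on the minus strand. Klf2 held 1 CACCC and 2 GC boxes, and 71.2% of its bases were G or C. Klf13 held 1 CACCC and 3 GC boxes, of which the CACCC overlaps a GC box. S1pr4 held 1 CACCC and no GC box, at 38.8% G and C. Searched on both strands, CACCC occurred in 52.0% and GGGCGG in 32.7% of 32851 promoters of the same length. The forkhead core GTAAACA, found in 3.17% of promoters, was in none of the 7 members with a RefSeq promoter entry, which are all but Klf10 and S1pr1, and the full cAMP response element TGACGTCA, found in 1.55%, was in none either.

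Klf2 was the member with the largest fall in Treg KO. The gene lies at chromosome 8, 72319033 to 72321656 (GRCm38), on the plus strand. The 4 Treg WT libraries gave 1076, 848, 855 and 767 normalized reads, with a mean of 886 ± 133 (SD, n = 4). The 4 Treg KO libraries gave 405, 651, 360 and 564, with a mean of 495 ± 136 (SD, n = 4). Every Treg KO library was below every Treg WT library. The difference was -0.87 ± 0.15 (SE) on the log2 scale, a 1.83-fold lower level, with an adjusted p of 0.00198 (limma, Benjamini-Hochberg over 11314 tested genes). Fewer cells with Klf2 and less Klf2 per cell cannot be told apart in such bulk samples. Klf2 is rich in G and C (61.56% of its exon bases), and in this comparison the fifth of genes richest in G and C had a median log2 difference of -0.30 and the fifth poorest 0.19. With that trend removed the difference of Klf2 was -0.38 and its adjusted p 0.0608, so the call ended.

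In Tconv, Klf2 gave 1381, 1364 and 1353 normalized reads in WT and 967, 1144, 1104 and 1212 in KO. Each of the 4 KO libraries was again below the 3 WT libraries, but the log2 difference of -0.31 ± 0.17 (SE) did not pass (adjusted p = 0.474, limma). The test of whether the genotype difference was unlike in Treg and Tconv gave -0.56 ± 0.23 with an adjusted p of 0.515, so the larger fall in Treg is not shown to differ from that in Tconv. Treg had less Klf2 than Tconv in WT (log2 difference -0.63 ± 0.17, adjusted p = 0.0134) and in KO (-1.20 ± 0.15, adjusted p = 3.24e-05), with no overlap in either. The WT call ended without Tconv WT replicate 1 (adjusted p = 0.0504). These comparisons share their libraries, and so do those of the genes below.

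**Figure D1:**
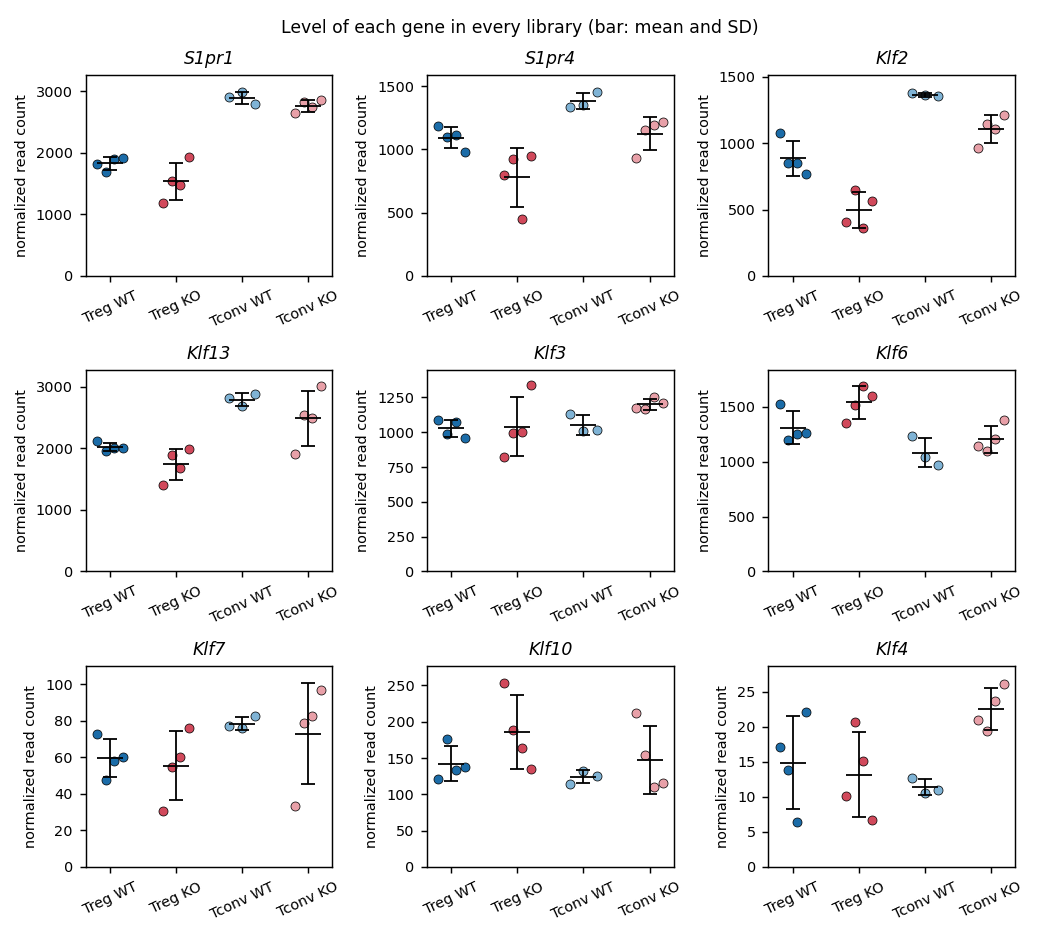
Normalized read count (y axis, from 0) of each of the 9 genes in every library of the 4 groups, with bars for the mean and SD. For Klf2 all 4 Treg KO points (360 to 651) lie below all 4 Treg WT points (767 to 1076), and 6 of the 7 Tconv points lie above every Treg point, the exception being Tconv KO replicate 1 (967).

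S1pr1, the egress receptor, separated the cell types more than the genotypes. It lies at chromosome 3, 115710433 to 115715072, on the minus strand. It gave 1813, 1684, 1903 and 1921 normalized reads in Treg WT and 1188, 1549, 1480 and 1931 in Treg KO. The highest Treg KO library lay just above the WT range and the other 3 lay below it. The log2 difference of -0.27 ± 0.11 (SE) did not pass (adjusted p = 0.0781, limma), and it passed without that highest library, Treg KO replicate 4 (-0.39, adjusted p = 0.00768). Tconv WT gave 2910, 2993 and 2792 and Tconv KO 2646, 2827, 2744 and 2868, so the genotypes overlapped and the log2 difference was -0.06 ± 0.11 (adjusted p = 0.848). All Tconv libraries lay above all Treg libraries. S1pr1 was 1.58-fold lower in Treg than in Tconv in WT (log2 difference -0.66 ± 0.11, adjusted p = 0.000617) and 1.83-fold lower in KO (-0.87 ± 0.11, adjusted p = 1.86e-05).

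S1pr4, the second receptor of the group, fell in Treg KO. It lies at chromosome 10, 81497747 to 81500132, on the minus strand. Treg WT libraries gave 1182, 1099, 1115 and 981 normalized reads and Treg KO libraries 796, 926, 448 and 948. Each KO value was below each WT value, although the highest KO and the lowest WT library lay close together and Treg KO replicate 3 stood far below the other 3. The log2 difference was -0.54 ± 0.18 (SE), a 1.46-fold lower level (adjusted p = 0.0400, limma). This call was close to the threshold: leaving out any 1 of the 4 Treg WT libraries ended it (adjusted p 0.103, 0.0779, 0.0784 and 0.0583) as did leaving out Treg KO replicate 1 (0.0524), dropping the filter on low values (0.0554) and a fit of only the 2 groups compared (0.0971). S1pr4 is also rich in G and C (59.26%), and with the trend on base content removed the difference was -0.16 with an adjusted p of 0.301. Tconv gave 1340, 1349 and 1452 in WT and 933, 1154, 1197 and 1220 in KO. All 4 KO libraries lay below the WT libraries, and the log2 difference of -0.30 ± 0.19 did not pass (adjusted p = 0.543). Against Tconv, Treg had a log2 difference of -0.34 ± 0.19 in WT, which did not pass (adjusted p = 0.266, but 0.00139 in a fit of only the groups compared, 0.00693 with library weights and 0.0232 with the base content trend removed), and of -0.58 ± 0.18 in KO, which did (adjusted p = 0.0208). The KO call ended without Tconv KO replicate 3 or 4 (adjusted p 0.0551 and 0.0509) and in a fit of only the groups compared (0.0996).

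Klf13, a factor first described in T cells as an activator of the chemokine gene Ccl5, was lower in Treg than in Tconv. It lies at chromosome 7, 63886351 to 63938915, on the minus strand. Treg WT gave 2118, 1955, 2006 and 1999 normalized reads, Tconv WT 2824, 2682 and 2878, Treg KO 1407, 1885, 1689 and 1983, and Tconv KO 1918, 2538, 2498 and 3008. The WT cell types were well apart, while the lowest Tconv KO library fell among the Treg KO libraries. The log2 difference of Treg from Tconv was -0.47 ± 0.13 (SE) in WT (adjusted p = 0.0175, limma) and -0.51 ± 0.12 in KO (adjusted p = 0.00419). The WT call ended without Tconv WT replicate 1 or 3 (adjusted p 0.0623 and 0.0658). Neither genotype difference passed, at -0.23 ± 0.12 in Treg (adjusted p = 0.184) and -0.18 ± 0.13 in Tconv (adjusted p = 0.579).

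Klf6, an immediate response gene of injured tissue and activated leukocytes, ran the other way from Klf2. It lies at chromosome 13, 5861482 to 5870394, on the plus strand. Treg KO gave 1346, 1514, 1691 and 1599 normalized reads and Treg WT 1527, 1198, 1248 and 1262. Treg WT replicate 1 lay within the KO range and the other 3 WT libraries below it. The log2 difference of 0.23 ± 0.10 (SE) did not pass (adjusted p = 0.108, limma). Tconv gave 1229, 1046 and 970 in WT and 1138, 1096, 1207 and 1375 in KO, with overlap. Klf6 was higher in Treg than in Tconv in KO, by 0.35 ± 0.10 on the log2 scale (adjusted p = 0.0146), where only the highest Tconv library entered the Treg range, and the call ended with library weights (adjusted p = 0.0601). The WT difference was 0.27 ± 0.11 and did not pass (adjusted p = 0.0976), but passed in a fit of only the groups compared (0.0340) and with library weights (0.0110).

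Klf3, a repressor that recruits the corepressor CtBP, passed in no comparison of the main analysis. It lies at chromosome 5, 64803388 to 64832901, on the plus strand. Its libraries ranged from 960 to 1086 (WT) and 825 to 1339 (KO) normalized reads among Treg, and from 1008 to 1133 and 1169 to 1256 among Tconv. The Tconv KO libraries all lay above the Tconv WT libraries, with a log2 difference of 0.19 ± 0.12 (SE) that did not pass (adjusted p = 0.517, limma). Treg KO and Treg WT had nearly the same mean, 1041 ± 215 against 1028 ± 62.5 (SD, n = 4 each). Between Treg KO and Tconv KO its difference of -0.23 (adjusted p = 0.116) passed with the base content trend removed (-0.28, adjusted p = 0.0490) and without Treg KO replicate 4 (-0.36, adjusted p = 0.00355). Treg KO held both the lowest and the highest Klf3 level of all 15 libraries.

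The other 3 factors were low. Klf10 (chromosome 15, 38291463 to 38300706, minus strand), which transforming growth factor beta induces, averaged 142 ± 24.1 normalized reads (WT) and 185 ± 50.7 (KO) among Treg and 124 ± 9.04 and 148 ± 46.8 among Tconv (SD). Klf7 (chromosome 1, 64029447 to 64122282, minus strand), best known from neurons, averaged 59.7 ± 10.3 and 55.4 ± 19 among Treg and 78.4 ± 3.56 and 72.8 ± 27.5 among Tconv. Klf4 (chromosome 4, 55527143 to 55532466, minus strand), known for its use in reprogramming and as a brake on T cell division, was the lowest of all. None of the 3 passed in any comparison of the main analysis. Klf7 in Treg WT against Tconv WT (-0.40) passed in a fit of only the groups compared (adjusted p = 0.0463).

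Klf4 showed the widest shift of any member between the Tconv genotypes, at a level where counting error is large. Tconv WT gave 12.7, 10.5 and 11 normalized reads and Tconv KO 21.0, 19.4, 23.7 and 26.1, from 50 and 88 reads in all. The 2 groups did not overlap, and the log2 difference was 0.92 ± 0.39 (SE) with an adjusted p of 0.364 (limma). Treg WT gave 17.1, 13.8, 6.40 and 22.2 and Treg KO 10.2, 20.6, 15.1 and 6.69, which overlapped fully. The difference between Treg KO and Tconv KO was -0.83 (adjusted p = 0.0887) and passed with quantile scaling (-1.04, adjusted p = 0.0428) and without Treg KO replicate 2 (-1.07, adjusted p = 0.0377).

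**Figure D2:**
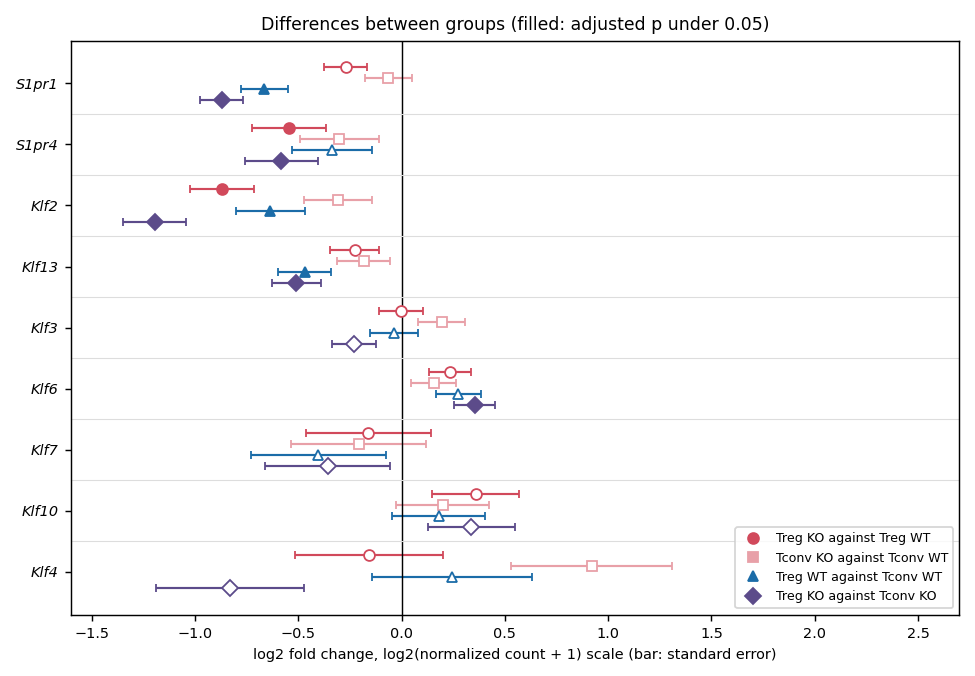
Log2 fold change (x axis, on the log2(normalized count + 1) scale) of each of the 9 genes in 4 comparisons, with bars for the standard error and filled symbols for an adjusted p under 0.05. Filled symbols stand at Klf2 and S1pr4 for Treg KO against Treg WT and at none of the genes for Tconv KO against Tconv WT, and Klf6 in Treg KO against Tconv KO is the only filled symbol to the right of 0.

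Counted over the 9 members, 2 fell and 0 rose in Treg KO against Treg WT, where 21.5% of all 11314 tested genes passed (10.4% higher and 11.1% lower). Their median log2 difference was -0.16, against -0.00031 over all tested genes. The 2 that fell are also the only members whose Treg genotypes did not overlap, and 26.2% of all genes had no overlap there (13.2% higher and 13% lower). In Tconv KO against Tconv WT 0 of 9 passed by limma, edgeR or DESeq2, with 1 member (Klf4) at an unadjusted p under 0.05 by limma, and 0.681% of all genes passed (0.292% higher and 0.389% lower). No overlap was seen for 4 of 9 (Klf2 and S1pr4 lower, Klf3 and Klf4 higher), against 16.3% of all genes (8.54% lower and 7.79% higher). Treg WT against Tconv WT had 3 members lower (S1pr1, Klf2 and Klf13) and 0 higher, with 18.1% of all genes passing (8.06% lower and 10% higher), and 5 members lower without overlap (also S1pr4 and Klf7) against 41.1% of all genes without overlap (20.5% lower and 20.6% higher). Treg KO against Tconv KO had 4 lower (the same 3 and S1pr4) and 1 higher (Klf6), with 31.4% of all genes passing (15.6% lower and 15.8% higher), and 2 members lower without overlap (Klf2 and S1pr1) against 24.1% of all genes (11.9% lower and 12.2% higher). The member medians of these 2 comparisons were -0.34 and -0.51, against -0.02 and -0.0098 over all tested genes. The difference of genotype differences passed for 0 of 9 members by limma, edgeR or DESeq2 (1 member, Klf2, at an unadjusted p under 0.05 by limma) and for 0.15% of all genes (0.0354% higher and 0.115% lower).

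Levels were compared between genes only per kilobase of exon (normalized reads divided by the summed length of a gene's exons). S1pr1 was the highest member in all 4 groups, from 505 ± 100 in Treg KO to 952 ± 33.1 in Tconv WT (SD). In Tconv WT the order was S1pr1, Klf2 (740 ± 7.63), S1pr4 (578 ± 26.2), Klf13 (371 ± 13.4), Klf6 (246 ± 30.3), Klf3, Klf10, Klf7 and Klf4 (3.74 ± 0.365), and no neighbours in it overlapped. Treg WT had the same first 3, with Klf2 at 480 ± 71.8, but S1pr1 overlapped Klf2 and Klf2 overlapped S1pr4, and Klf6 came before Klf13 with overlap. In Treg KO Klf2 stood at 268 ± 73.8, behind S1pr1, Klf6 (350 ± 33.4) and S1pr4 (327 ± 96.7). The highest Klf2 library (353) lay above the lowest Klf6 library (307). Klf2 thus overlapped Klf6 and S1pr4 above it and Klf13 (231 ± 33.7) below it, and Klf6 overlapped S1pr4. Tconv KO kept the order of Tconv WT, with overlap of S1pr4 with Klf13, of Klf13 with Klf6 and of Klf7 with Klf4.

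**Figure D3:**
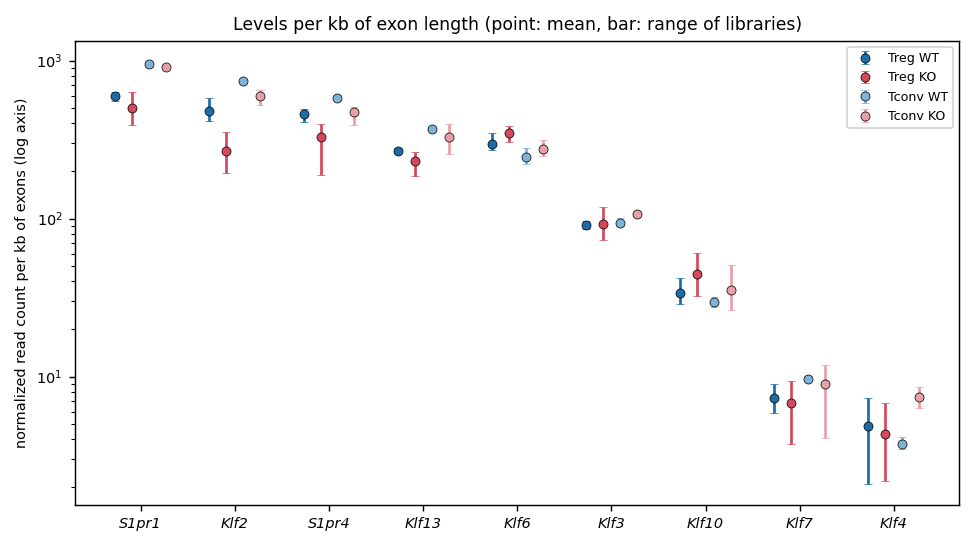
Normalized read count per kilobase of exon (y axis, log scale) of the 9 genes in the 4 groups, with points for the means and bars for the lowest and highest library. S1pr1 is highest in each group (505 to 952), Klf4 lowest, and Klf2 spans the widest range among the abundant genes, from 268 in Treg KO to 740 in Tconv WT.

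Spread within groups was larger in KO. The coefficient of variation was larger in Treg KO than in Treg WT for 8 of 9 members, with medians of 27.3% and 11.3%, and for 81.8% of all tested genes, with medians of 16.2% and 8.24%. In Tconv it was larger in KO for 7 of 9 members and 76.8% of all genes. Replicate numbers follow accession order and tie no samples of different groups together. Replicate 1 held the lowest Klf7 and Klf13 and the highest Klf10 of its group in both Treg KO and Tconv KO. Klf7 was at 30.5 normalized reads in Treg KO replicate 1 against 54.6 to 76.2 in the other 3, and at 33.2 in Tconv KO replicate 1 against 78.6 to 96.7. Klf10 was at 254 against 135 to 189 and at 212 against 110 to 154. Over all 15 libraries, deviations from the group means had a Pearson r of -0.93 between Klf7 and Klf10, 0.93 between Klf7 and Klf13, 0.81 between Klf2 and S1pr4 and 0.85 between Klf3 and S1pr1. These are descriptions over 15 points that share libraries, depth and scaling. Without Tconv KO replicate 1, Klf7 was lower (-0.69, adjusted p = 0.0355, limma) and Klf10 higher (0.53, adjusted p = 0.0430) in Treg KO than in Tconv KO.

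**Figure D4:**
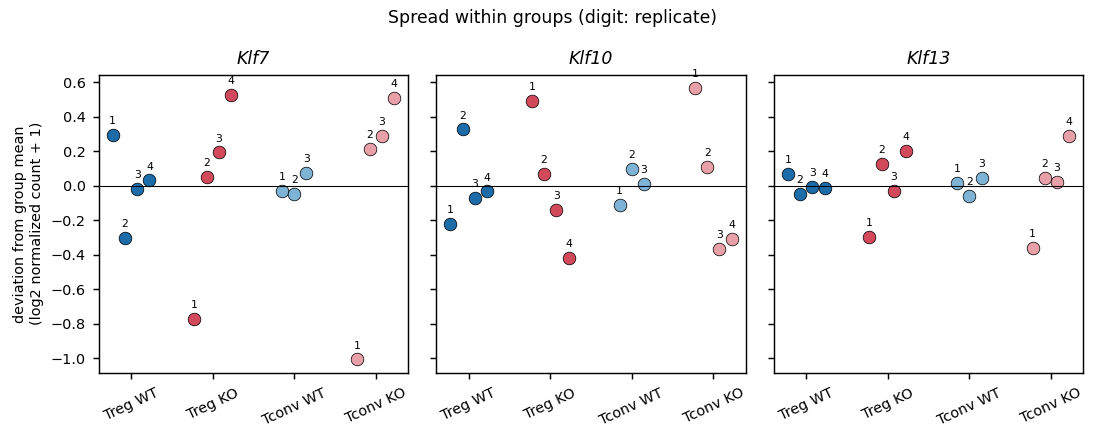
Deviation of log2(normalized count + 1) from the group mean (y axis) for Klf7, Klf10 and Klf13 in each library, with the replicate number beside each point. Replicate 1 of both KO groups lies lowest for Klf7 and Klf13 and highest for Klf10.

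Across all 15 libraries, with group differences included, Klf2 had a Pearson r of 0.90 with S1pr4, 0.89 with Klf13, 0.87 with S1pr1 and -0.69 with Klf6, and Klf13 and S1pr1 had 0.90. Among 8568 genes with a mean of at least 50, the genes most like Klf2 were Ldha (0.97), Lat, Ccnd3, Mark2 and Scamp4 (0.96 each). Ldha, which encodes a subunit of lactate dehydrogenase, averaged 2256 normalized reads (WT) and 1716 (KO) among Treg and 2851 and 2488 among Tconv, the same order of groups as Klf2. The genes most like S1pr1 were Oas2, Rasa3, Rnf167 and Slfn1 (0.98 each) and Sema4a (0.97). Sema4a averaged 332 and 217 among Treg and 1139 and 1124 among Tconv. These values describe likeness over libraries that share group, depth and scaling.

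Of 10 other Kruppel-like factors in the table, 5 had values high enough to test. In Treg KO against Treg WT 2 of them rose and 1 fell, against 21.5% of all tested genes, with a list median of 0.35. Klf8 went from 20.7 ± 3.46 to 47.8 ± 14.3 normalized reads (SD, n = 4 each; log2 difference 1.13, adjusted p = 0.00899, limma). Klf12, a repressor that like Klf3 and Klf8 binds CtBP, went from 27.1 ± 2.56 to 52.8 ± 7.36 (0.93, adjusted p = 0.0156). Klf16 went from 210 ± 24.2 to 162 ± 27.7 (-0.37, adjusted p = 0.0382), and its difference was 0.06 with the trend on base content removed (adjusted p = 0.724), 1 of 9 among 19 alternatives that ended the call. Klf12 was also the only gene of any list here that passed between the Tconv genotypes, at 7.86 ± 1.42 in WT and 25.7 ± 8.41 in KO (1.53, adjusted p = 0.0119), and that call ended without Tconv WT replicate 1 or 3 (adjusted p 0.0936 and 0.0848) and in a fit of only the groups compared (0.124). Klf9 and Klf12 were higher in Treg than in Tconv, Klf9 at 77.9 against 33.4 in WT (1.18, adjusted p = 0.000824). Among 5 tested Sp factors, the zinc finger family closest to these, only Sp1 passed in Treg KO, against 21.5% of all tested genes. Its log2 difference was 0.21 (adjusted p = 0.0386, limma), with an adjusted p of 0.436 once the trend on base content was removed. The call of Sp1 ended in 10 of 19 alternatives. Sp6 was higher in Treg than in Tconv in WT (2.11, adjusted p = 4.57e-06).

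Among 11 tested cofactors of the family, 3 rose and 2 fell in Treg KO, against 21.5% of all tested genes, with a median of 0.12. Wwp1, a ubiquitin ligase known to target Kruppel-like factors, rose from 294 ± 16.7 to 477 ± 96.2 normalized reads (0.67, adjusted p = 0.00161, limma). Sin3a rose by 0.24 (adjusted p = 0.0144) and Fbxw7 by 0.33 (adjusted p = 0.0353). The deacetylase gene Hdac1 fell from 567 ± 15.7 to 342 ± 45.3 (-0.74, adjusted p = 0.00965), and Ctbp1, which encodes the partner of Klf3, fell by 0.31 (adjusted p = 0.0250). The calls of Fbxw7 and Ctbp1 ended with the trend on base content removed (adjusted p 0.128 and 0.294) and in 7 and 4 of 19 alternatives in all, and that of Sin3a ended in a fit of only the groups compared (0.0507).

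Of 20 genes of the sphingosine 1-phosphate pathway in the table, besides the 2 members, 15 were tested, and in Treg KO 3 fell and 2 rose, against 21.5% of all tested genes, with a median of -0.07. Arrb2, which encodes an arrestin that desensitizes receptors, went from 1223 ± 8.44 to 922 ± 69.3 (-0.41, adjusted p = 0.000535, limma). Sphk2, a kinase that makes sphingosine 1-phosphate, went from 379 ± 34.1 to 235 ± 43.8 (-0.70, adjusted p = 0.00172). Gnai2, which encodes the G protein subunit that S1PR1 signals through, went from 3676 ± 147 to 2879 ± 171 (-0.35, adjusted p = 0.00222), and that call ended with the trend on base content removed (-0.10, adjusted p = 0.363). Gnai3 rose by 0.30 and Sgpl1, the lyase that degrades the ligand, by 0.26, and both calls ended there too (adjusted p 0.110 and 0.0655) and in 5 and 7 of 19 alternatives in all. S1pr5, a receptor of cytotoxic lymphocytes, was seen mainly in Tconv. It had 1 read in Treg WT against 32 in Tconv WT, a 40.6-fold difference per M reads (95% interval 6.79 to 1654, counting error only). It had 0 reads in Treg KO against 117 in Tconv KO, at least 28.1-fold lower with 3 reads over the group as the floor. S1pr5 met the filter on low values only through Tconv, with 3.62 to 11.7 normalized reads in WT and 18.2 to 39.5 in KO. Between Tconv genotypes 0 of the 15 tested genes of this pathway passed (limma), against 0.681% of all tested genes. Markers of CD8 T and NK cells, mostly Nkg7 and Prf1, also summed higher in Tconv (656 to 837 in WT, 706 to 1321 in KO) than in Treg (193 to 257 and 206 to 245). Nkg7, Prf1, Klrd1 and Klrb1c passed as lower in Treg in both genotypes. Cd8b1 did not pass, at 60.8 normalized reads in Treg WT and 59.4 in Tconv WT (adjusted p = 0.928, limma). Cd8a and Ncr1 averaged at most 1.62 and 0.176 in any group. The part of such cells in the S1pr5 difference was not tested.

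Of 20 genes of lymph node homing and residence, all tested, 5 rose and 4 fell in Treg KO, against 21.5% of all tested genes, with a median of 0.07. Ccr7, the chemokine receptor for entry into lymph nodes, did not pass, with a log2 difference of -0.61 (adjusted p = 0.0601, limma), from 1286 ± 139 to 868 ± 249. It passed in 4 of 19 alternatives: by DESeq2 (0.0398), with library weights (0.0463) and without Treg KO replicate 2 (0.0394) or 4 (0.0411). With the trend on base content removed the difference was -0.50 (adjusted p = 0.142). With 1 library left out the adjusted p reached 0.160. Coro1a, an actin regulator that T cells need to leave the thymus, fell from 11111 ± 1130.1 to 7544 ± 1465 (-0.58, adjusted p = 0.00825), and Arhgef1, a guanine nucleotide exchange factor, from 12183 ± 687 to 7615 ± 1928 (-0.72, adjusted p = 0.00765, and 0.0554 with the trend on base content removed). Dock2, an activator of Rac in moving lymphocytes, rose from 5797 ± 220 to 6973 ± 297 (0.27, adjusted p = 0.0113). Itgb7 (-0.35, adjusted p = 0.0233) and Rasgrp2 (-0.72, adjusted p = 0.0281) also fell, and Cd44 rose (0.59, adjusted p = 0.0259, limma). Those calls ended in 6, 6 and 7 of 19 alternatives, and those of the other genes that rose in 9, 9 and 10. Only Coro1a and Dock2 passed in every alternative. Between Tconv genotypes 0 of the 20 passed (limma), against 0.681% of all tested genes. Between cell types in WT, 5 of 20 were lower in Treg and 1 higher, against 18.1% of all genes, among them Il7r (-1.03, adjusted p = 0.00414) and Rasgrp2 (-1.03, adjusted p = 0.00557) lower and Itgae, an integrin of tissue-resident cells, higher (6.77, adjusted p = 1.36e-08). In KO 6 were lower and 2 higher, against 31.4% of all genes, and Ccr7 was lower (-1.29, adjusted p = 0.000446).

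Of 15 genes upstream of Klf2 or tied to the naive state, 3 fell and 1 rose in Treg KO, against 21.5% of all tested genes, with a median of -0.21. Foxo1, the activator of Klf2, had a log2 difference of -0.17 (adjusted p = 0.195, limma), from 1965 ± 106 to 1756 ± 199. Akt2, a kinase that inactivates FOXO proteins, fell from 797 ± 15 to 566 ± 69 (-0.50, adjusted p = 0.00231). Mef2d, whose family activates Klf2 in endothelium, fell by 0.51 (adjusted p = 0.0119, and 0.0513 with the trend on base content removed), and Bach2 by 0.62 (adjusted p = 0.0328, not passing in 6 of the 8 fits that each left out 1 library). Tcf7 and Lef1, factors of naive T cells, were lower in Treg than in Tconv in WT (-1.30 and -1.36, adjusted p 1.34e-07 and 0.000183) and in KO (-1.31 and -1.68, adjusted p 4.25e-08 and 8.87e-06). Among 20 tested genes of early response and isolation stress, which can be induced while cells are being prepared, 1 fell and 0 rose in Treg KO, against 21.5% of all tested genes, with a median of -0.17. It was Dusp2, a phosphatase of activated kinases (-0.49, adjusted p = 0.00584), and its adjusted p was 0.687 with the trend on base content removed. Of the same 20 genes, 4 were higher and 0 lower in Treg WT against Tconv WT, against 18.1% of all genes. In Treg KO against Tconv KO 6 were higher and 3 lower, against 31.4% of all genes. Dusp1 (1.45 in WT and 1.43 in KO) and Rgs1 (3.31 and 2.71) were higher in Treg in both. Their bearing on the cell type differences of the members was not tested.

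The neighbours of Klf2 on chromosome 8 were examined because Hpgd lies on the same chromosome, at 56294585 to 56321043, 16 Mb before it. Among the 20 nearest tested genes, 10 on each side, 6 rose and 2 fell in Treg KO, which is 40% against 21.5% of all genes, with a median of -0.09. For the neighbours of the other 8 members the share was 5.88% to 20%. The largest change was at Cyp4f18, a cytochrome P450 of leukotriene metabolism that lies 331 kb before Klf2: of its reads 285 were in Treg KO, 5 in Tconv KO and 0 in either WT group. It was at least 204-fold higher per M reads in Treg KO than in Treg WT, with 3 reads over the group as the floor (adjusted p = 3.93e-07, limma). Cyp4f18 met the filter on low values only through Treg KO (38.8 to 186 normalized reads, at most 1.97 in Tconv KO). Its p-value is therefore no separate support, and the gene is counted among the 6 neighbours that rose. Olfr372, an olfactory receptor gene, went from 0.317 to 11.1 normalized reads (adjusted p = 0.00167), and Rab8a from 864 to 1049 (0.28, adjusted p = 0.0112). Cherp went from 1017 to 699 (-0.58, adjusted p = 0.0143), a call that ended in a fit of only the 2 groups compared. Eps15l1, the tested gene nearest to Klf2, had 759 and 710 (-0.09, adjusted p = 0.316). In Tconv 0 of the 20 passed by limma, against 0.681% of all tested genes. Whether the position of Klf2 on the chromosome that carries the conditional allele bears on its level was not tested.

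**Figure D5:**
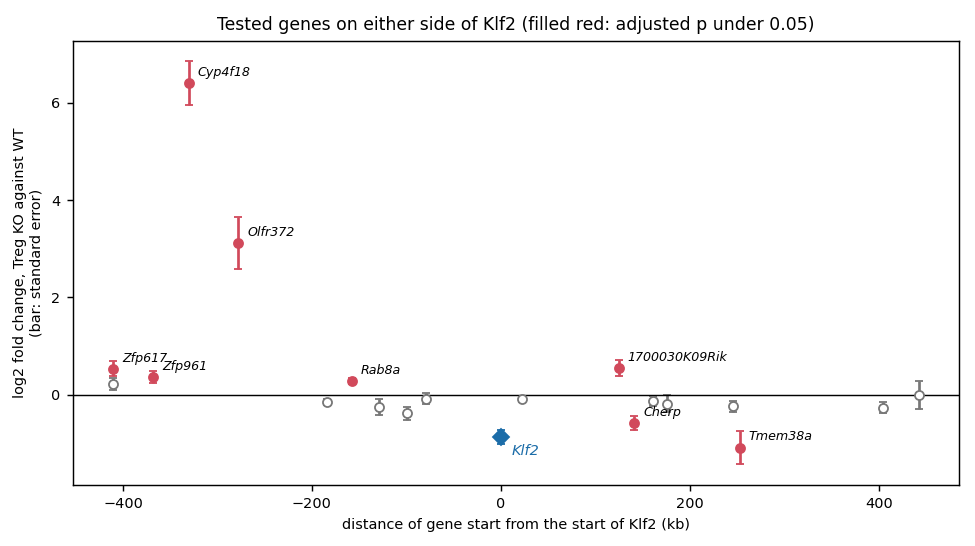
Log2 fold change of Treg KO against Treg WT (y axis, with standard error) for Klf2 and 19 of its 20 neighbours, by distance from the start of Klf2 (x axis, kb). Red filled points passed, and the farthest neighbour, Hmgxb4 at 2674 kb, which did not pass, lies outside the plot. The point of Cyp4f18 depends on the pseudocount, since the gene had 0 reads in Treg WT.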

How the data were processed

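RNA-seq libraries came from sorted splenic cells, prepared with an Illumina TruSeq RNA kit per the labels' protocols. Per the submitters' processing notes the reads were aligned with TopHat to mm10; the counting step and its gene models are left unnamed, being not given in the sources used here. Each deposited value is a normalized signal, a gene's read count that the authors had divided by the library's size factor. Within 0.001 of a read, 100% of values were whole reads. Total depth ran from 2.64 to 11.1 M reads a library. The labels name no molecular identifiers, and intervals and floors of 3 reads cover counting error only.

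The 11314 genes that reached 10 normalized reads in 3 or more libraries were tested in limma 3.58.1 (R 4.3.3) on log2(value + 1), with 4 group means over 15 libraries, a trend on mean level, 5 contrasts, two-sided, and Benjamini-Hochberg adjustment. An adjusted p under 0.05 passed, and only such differences are said to rise or fall. Fold changes of low genes are understated on this scale. Replicates were numbered in accession order. Named were all 9 members, up to 6 genes of each list by smallest p (and Ccr7, Foxo1 and Eps15l1 for their known role or position, chosen after their values were seen), the 5 genes most like Klf2 and S1pr1, and up to 6 neighbours of Klf2. The members and lists were chosen with earlier results of these data known. Some genes of the lists are counted but not reported here by name. The method was tested on simulated counts with the same spread setting for a gene in all groups and no trend on base content. These data had a larger spread in KO and such a trend, which that simulation does not cover.

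Alternatives were edgeR 4.0.16 (quasi-likelihood) and DESeq2 1.42.0 on the recovered reads, a pseudocount of 8 or 0.1, dropping the filter or asking for a mean of 50, quantile and TMM scaling, fits restricted to each pair of groups, library weights, removal of a trend on exon G and C content (11222 genes), and leaving out each library. Gene positions, exon lengths and base content came from GENCODE vM21 (GRCm38), matched by 16652 current and 694 older symbols, while 42 were ambiguous and 206 found no match. Plots were made in matplotlib 3.10.9 (Python 3.11.15).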

Additional observations from a re-analysis of the deposited data

How the results depend on the processing

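Of 10 called results of the members 6 lost the call under at least 1 alternative, and of 35 uncalled ones 8 passed under at least 1. Of 56 called results of the list and neighbour genes recomputed 20 lost the call under at least 1. Of 45 member results, 20 kept their direction and side of the threshold under every alternative, and of 886 recomputed values 828 did. The count of members past the threshold in Treg KO against Treg WT was 1 without the filter, 1 in a fit of only the groups compared and 0 with the base content trend removed, and 1 to 3 with 1 library left out. In Treg WT against Tconv WT it was 6 with only the groups compared, 5 with library weights and 1 to 3 with 1 library left out. In Treg KO against Tconv KO it was 4 to 7 with 1 library left out, and for Tconv KO against Tconv WT and for the interaction it was 0 in every fit. edgeR on the recovered reads called 2444, 93, 2326, 3462 and 17 genes in Treg KO against Treg WT, Tconv KO against Tconv WT, Treg WT against Tconv WT, Treg KO against Tconv KO and the interaction (limma 2431, 77, 2046, 3558 and 17). Among all tested genes, Tconv KO against Tconv WT gave 236 calls by DESeq2, 32 with only the groups compared, 307 with library weights and 22 to 105 with 1 library left out. Treg WT against Tconv WT gave 3990 with only the groups compared, 4330 with library weights and 1407 to 1726 with 1 left out. Treg KO against Tconv KO gave 2042 with only the groups compared and 2907 to 3897 with 1 left out. Treg KO against Treg WT gave 1393 to 2743 with 1 left out. The interaction gave 91 by DESeq2, 56 with library weights, 36 with the base content trend removed and 3 to 23 with 1 left out. Signs turned in 30 fits, all of uncalled values save Klf16 in Treg KO (0.064 with the base content trend removed). With edgeR, DESeq2, library weights and the base content trend removed, Klf7 in the interaction was -0.0623, -0.0293, -0.128 and -0.0275, and Klf3 in Treg KO against Treg WT was 0.00855 and 0.0195 with the first pair. The base content fit also turned Klf4 in Treg KO (0.00831) and Klf6 and Klf13 in the interaction (-0.00859 and 0.0671), and quantile scaling turned Klf4 in Treg WT against Tconv WT (-0.00111). With 1 library left out, Treg KO against Treg WT ranged from -0.13 to 0.10 for Klf3, -0.48 to 0.10 for Klf4, and -0.337 to 0.0948 for Klf7, Klf7 in Tconv KO against Tconv WT from -0.38 to 0.13, and Klf3 in Treg WT against Tconv WT from -0.0647 to 0.0194. The interaction then ranged from -0.29 to 0.30 for Klf7, -0.0174 to 0.155 for Klf6, -0.161 to 0.0566 for Klf13, -0.00526 to 0.346 for Klf10 and -0.358 to 0.00174 for S1pr4. The cause of these changes was not tested. No paired analysis was possible because the labels give each sample a number of its own. Depth limits Klf4, with 36 to 88 reads per group. Fits that leave out 1 library keep at least 2 libraries in each group.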
